A study of Homo sapiens with 52 samples.

Results

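The Siglec receptors described here are the 9 genes SIGLEC1, SIGLEC5, SIGLEC7, SIGLEC9, SIGLEC10, SIGLEC14, SIGLEC15, CD33 and CD22. They were found by symbol in 2 tables of raw read counts, with 9 of 61209 rows in the table of macrophage libraries and 10 of 62696 rows in the table of tumour line libraries, where SIGLEC5 has 2 rows. Siglecs are membrane receptors that bind sialic acids, the acidic sugars at the ends of cell surface glycans. Most carry cytoplasmic ITIM motifs that recruit the phosphatases SHP-1 and SHP-2 (PTPN6 and PTPN11) and dampen myeloid and lymphoid activation. Others lack these motifs and pair through a charged membrane residue with the activating adaptor DAP12 (TYROBP). Sialylated tumour cells can engage inhibitory Siglecs of macrophages, which is why these genes are followed in co-cultures of macrophages with cancer cells.

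Poly(A) RNA was sequenced from 52 libraries in 18 groups. HepG2 and Huh6 are human hepatoblastoma cell lines, and both were given vehicle, PKF118-310 or iMDK for 48 h. PKF118-310 (0.2 or 0.3 µM in HepG2, and 0.2, 0.3 or 0.4 µM in Huh6) blocks the binding of beta-catenin to TCF, the last step of canonical Wnt signalling. iMDK (5 or 10 µM in both lines) is an inhibitor of the growth factor midkine (MDK). THP-1, a human monocytic leukaemia line, was turned into macrophages with PMA (80 ng/ml for 48 h, then 48 h of rest) in all 7 of its groups. These macrophages stayed without tumour cells or shared a culture for 24 h with untreated HepG2 or Huh6 cells or with HepG2 or Huh6 cells that had first received 5 or 10 µM iMDK for 24 h, and were then sorted. Whether iMDK was removed before the cells met is not stated, and no macrophage group received PKF118-310. Each group had 3 libraries, except HepG2 with 0.3 µM PKF118-310, which had 1 and entered no test. The labels do not say that the 3 libraries of a group came from separate cultures, so the p-values measure the spread between libraries, which may be technical.

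Library totals were 12.624 to 16.94 M counts in THP-1, 18.285 to 20.043 M in HepG2 and 18.172 to 19.913 M in Huh6. Levels are given in CPM, the usual depth-scaled unit of a gene's share of all counts in its library. At these depths 3 counts correspond to 0.177 to 0.238 CPM in THP-1, 0.150 to 0.164 CPM in HepG2 and 0.151 to 0.165 CPM in Huh6. Summed macrophage markers lay between 6810 and 7542 CPM over the 21 THP-1 libraries, although the marker CD68 was listed at 0 in all of them. Sorted macrophage libraries also held tumour reads. Their estimated share was 7.25% to 9.72% with HepG2 (median 8.55%), 4.22% to 5.98% with HepG2 given 5 µM iMDK and a median of 2.89% with HepG2 given 10 µM, against 0.418% to 1.69% with untreated Huh6 and 0.162% to 0.361% with Huh6 given iMDK. Each test in co-cultures was therefore repeated after subtraction of these reads as estimated. The subtraction did not remove all reads of the hepatoblastoma markers from which the share was estimated. The share is a median over these markers, so those above it keep an excess by construction. After it, 10 of 15 tested hepatoblastoma markers were still called higher with HepG2 than in macrophages alone (median log2 fold change 5.04). With Huh6, 2 of 15 were still called higher. With HepG2 given 10 µM iMDK, 1 of 15 was higher and 6 were lower than with untreated HepG2. These counts cannot show how many tumour reads remain in other genes. Values after subtraction can still include tumour reads, and too many reads can also have been subtracted.

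All members except SIGLEC1, SIGLEC15 and CD22 lie in the CD33-related cluster on the long arm of chromosome 19, and their sequences decide how far their reads can be told apart. In GRCh38 with the GENCODE 29 annotation, SIGLEC9 is at 19:51124908-51136651 and SIGLEC7 at 19:51142299-51153526, both on the plus strand, followed by CD33 at 19:51225064-51243860. SIGLEC10 (19:51410021-51417803) is on the minus strand. SIGLEC14 (19:51642553-51646801, minus strand) lies within the span of the second of the SIGLEC5 gene models (19:51611927-51645545 and 19:51612091-51646889), which overlap each other. CD22 is at 19:35319261-35347355, SIGLEC1 at 20:3686970-3707128 on the minus strand, and SIGLEC15 at 18:45825512-45844080. Of the 50-base stretches of its exons, SIGLEC1 shared 0% with any other gene, SIGLEC7 0.366%, CD33 0.916% and CD22 1.11%. The shares were 8.43% for SIGLEC10, mostly with SIGLEC11, 33.1% for SIGLEC14, mostly with SIGLEC5, and 82.2% and 100% for the 2 gene models of SIGLEC5. Counts of SIGLEC5 and SIGLEC14 are therefore uncertain, while those of SIGLEC1, CD22, CD33, SIGLEC7 and SIGLEC9 rest almost wholly on unshared sequence. SIGLEC10 and SIGLEC7 also overlap antisense genes, and how the counting treated strand was not stated.

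The sequences before the RefSeq starts (GRCh38.p14) of CD22 and SIGLEC9 are shown because these are the members whose counts differed most between the HepG2 treatments. The CD22 stretch is chr19:35328937-35329165 and the SIGLEC9 stretch chr19:51124630-51124879, both on the plus strand and printed 5′ to 3′, and the capitals mark the reverse complement of the motif GAGGAA.
CD22: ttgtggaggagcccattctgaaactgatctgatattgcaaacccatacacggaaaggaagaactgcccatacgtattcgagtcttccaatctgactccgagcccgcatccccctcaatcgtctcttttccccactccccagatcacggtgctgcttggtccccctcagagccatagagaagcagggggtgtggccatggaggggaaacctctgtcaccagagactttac
SIGLEC9: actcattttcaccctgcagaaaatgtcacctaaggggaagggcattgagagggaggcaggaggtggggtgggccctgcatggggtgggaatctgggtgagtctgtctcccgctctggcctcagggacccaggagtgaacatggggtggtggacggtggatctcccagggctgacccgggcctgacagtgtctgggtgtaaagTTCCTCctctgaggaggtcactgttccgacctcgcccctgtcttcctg

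The CD22 stretch ends where the first annotated exon begins and lies within an intron of transcripts that start further upstream. Windows of 250 bases before the start were searched on both strands in the 8 members that had one, all but SIGLEC1. GAGGAA, a core bound by the myeloid factor PU.1, was found in CD33 (2 matches), SIGLEC7, SIGLEC9 and SIGLEC15, beginning 48 bases before the start in SIGLEC9, and in 23.6% of 35116 such windows genome-wide. The windows of CD22, SIGLEC5, SIGLEC10 and SIGLEC14 did not hold these letters. The letters TGANTCA (the AP-1 site, in 6.57% of all windows), the repeated-GAAA core of the interferon-stimulated response element (3.02%) and CTTTGAT (a TCF site, 2.26%) were in none of the 8 windows. The windows of SIGLEC5 and SIGLEC14 were identical at 195 of 250 bases, including the last 113 before the start. A match is a description of the letters and not of binding.

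In THP-1 macrophages cultured alone, SIGLEC9 was the most abundant Siglec per length of transcript. Levels per kilobase of exon were 16.6 ± 0.734 CPM for SIGLEC9 (SD, n = 3), 6.48 ± 0.245 for CD33, 5.07 ± 0.781 for SIGLEC1, 1.47 ± 0.0950 for SIGLEC7, 1.07 ± 0.106 for CD22 and 0.204 for SIGLEC10. The library values of CD33 lay above those of SIGLEC1, and those of SIGLEC7 above those of CD22, without overlap. With HepG2 given 5 µM iMDK, SIGLEC1 reached 15.5 ± 1.97 CPM per kilobase and SIGLEC9 14.7 ± 1.47, values that overlapped between libraries. With 10 µM they were 14.2 ± 2.60 and 14.6 ± 0.662, again overlapping. SIGLEC15, an osteoclast Siglec that pairs with DAP12, had 0 counts in all 52 libraries. SIGLEC5 had 0 to 2 counts and SIGLEC14, its activating partner, 0 to 4 counts per THP-1 library, at or close to the 3-count limit, so neither they nor SIGLEC15 were tested in macrophages. The other 6 members passed the filter on low counts.

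Of the 6 tested members 2 rose with HepG2, SIGLEC1 and CD22, where 11.9% of 15500 genes rose and 21.6% changed. With Huh6 SIGLEC1 rose, 1 of 6, where 1.31% of genes rose and 1.8% changed. After iMDK in HepG2 SIGLEC1 alone rose at each dose, where 0.0194% of genes rose and 0.0968% changed at 5 µM, and 0.652% rose and 3.37% changed at 10 µM. It was also the only member called in the tests of the difference between the co-cultures, where 0.0129% of genes were higher and 0.0194% called at 5 µM, and 0.00645% and 0.0323% at 10 µM. No member was called between HepG2 and Huh6 (16.7% of genes called), after iMDK in Huh6 (0.00645% at 5 µM and 0.0129% at 10 µM) or between the iMDK doses with either line (0%). The median log2 fold change of the 6 members with HepG2 was 0.16, and that of all genes -0.01. At 5 µM iMDK in HepG2 a model with the replicate number as a block called 582 genes, against 15 without it.

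SIGLEC1 encodes sialoadhesin, a macrophage receptor without ITIM motifs that captures sialylated particles and is widely used as a marker of interferon exposure. In macrophages cultured alone its 3 libraries held 33.1, 41.8 and 45.1 CPM. With HepG2 they held 57.8, 62.2 and 71.7 CPM, and with Huh6 59.4, 62.5 and 70.9 CPM. Every library with an untreated tumour line was above every library of macrophages alone. SIGLEC1 rose by 0.68 ± 0.15 on the log2 scale (± SE) with HepG2 (edgeR adjusted p = 0.0023) and by 0.68 ± 0.15 with Huh6 (adjusted p = 0.018). The direct difference between HepG2 and Huh6 co-cultures was -0.01, with a 95% interval from -0.33 to 0.31 (adjusted p = 0.983). In bulk libraries a change in the number of expressing cells and a change in RNA per cell cannot be told apart.

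The rise with HepG2 passed the threshold whichever library was left out (adjusted p 0.0028 to 0.0168). The rise with Huh6 was less secure. Its adjusted p was 0.146 without monoculture replicate 1, 0.083 without Huh6 replicate 3 and 0.052 without Huh6 replicate 1. SIGLEC1 was nearly absent from the tumour cells, with 0 to 2 counts in vehicle-treated HepG2 libraries and 1 in each of Huh6, and subtraction of tumour reads left changes of 0.86 (adjusted p = 0.000416) and 0.70 (adjusted p = 0.0474).

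**Figure D1:**
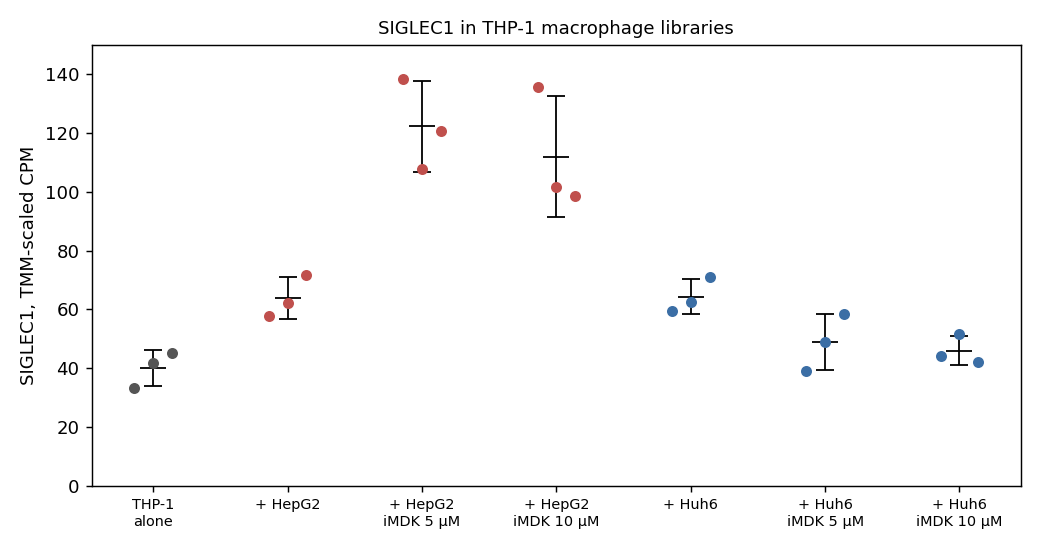
SIGLEC1 in the 21 THP-1 libraries, as CPM scaled by the trimmed mean of M values (TMM), with 1 point per library and bars for the mean ± SD of each group (n = 3). The libraries with iMDK-pretreated HepG2 lie between 98.5 and 138 CPM, above all other libraries, and those with iMDK-pretreated Huh6 between 39.2 and 58.4 CPM.

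SIGLEC1 rose further after iMDK pretreatment of HepG2, its change after pretreatment of Huh6 did not pass, and the difference between the co-cultures passed at both doses, at 5 µM only without a replicate block (adjusted p = 0.0501 with it). With HepG2 given 5 µM iMDK the libraries held 138, 108 and 121 CPM, and with 10 µM 136, 102 and 98.5 CPM. All 6 exceeded the highest library with untreated HepG2, at 71.7 CPM. The log2 fold changes against untreated HepG2 were 0.94 ± 0.15 at 5 µM (adjusted p = 0.0146) and 0.81 ± 0.15 at 10 µM (adjusted p = 0.00378), and 10 µM against 5 µM gave -0.13, with an interval from -0.44 to 0.18 (adjusted p = 0.999). SIGLEC1 was 1 of 3 genes that rose at 5 µM in the main model, which called 15 genes. How rare such a call was depended on the model. With a replicate block 582 genes were called, and replicate numbers paired the samples of this comparison.

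At 5 µM the adjusted p of SIGLEC1 was 0.119 without HepG2 replicate 2, 0.051 without replicate 2 of the 5 µM group and 0.062 without its replicate 3. At 10 µM it stayed between 0.0068 and 0.027 over all omissions. After subtraction of tumour reads, whose share was lower with iMDK, the changes were 0.87 (adjusted p = 0.00264) and 0.68 (adjusted p = 0.00927). HepG2 cells under iMDK held 0 or 1 counts of this transcript per library. Cell cycle genes were not called at either dose before subtraction (0 of 9, medians 0.11 and 0.22), and after it 5 of 9 were higher at 5 µM and 8 of 9 at 10 µM (medians 0.87 and 0.98), with 1 and 4 of 9 higher in the differences between co-cultures. The same subtraction left 6 of 9 lower with untreated HepG2 than in macrophages alone (median -0.89). It left 9 of 9 lower with HepG2 than with Huh6 (median -1.24). Among all genes, 309 were called after subtraction at 5 µM, and 68 and 174 in the differences at 5 and 10 µM. No such total is given for the other comparisons here, so their list counts have no share of all genes beside them. Vehicle-treated HepG2 cells held 2232 to 2308 CPM of the cell cycle genes summed, against 280 to 420 CPM in macrophages alone. The subtraction also takes reads from the untreated HepG2 libraries that the iMDK groups are set against, and its part in these calls was not tested. The part of cell cycle genes in the SIGLEC1 change was not tested.

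With Huh6 the libraries held 39.2, 49.0 and 58.4 CPM after 5 µM iMDK and 44.2, 51.5 and 42.2 CPM after 10 µM, all below the 59.4 CPM of the lowest library with untreated Huh6. These values overlapped the range of macrophages cultured alone. The changes of -0.39 ± 0.15 (unadjusted p = 0.0158, adjusted p = 1) and -0.48 ± 0.15 (unadjusted p = 0.00416, adjusted p = 0.451) in edgeR did not pass the threshold. The second was called only without a filter on low counts (adjusted p = 0.00375).

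The difference of the iMDK change between the co-cultures was tested directly. It was 1.33 ± 0.21 for SIGLEC1 at 5 µM (adjusted p = 0.0231), where 3 of 15500 genes were called, and 1.29 ± 0.21 at 10 µM (adjusted p = 0.0235), where 5 genes were called. Leaving out single libraries moved the adjusted p to between 0.010 and 0.128 at 5 µM and 0.028 and 0.144 at 10 µM, and the call was lost in 8 and 6 of 12 omissions. The size was between 1.20 and 1.47 at 5 µM, and between 1.12 and 1.36 at 10 µM.

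CD22, an ITIM-bearing receptor best known from B lymphocytes, was the other member that rose in co-culture. Its libraries held 6.49, 7.30 and 6.01 CPM in macrophages cultured alone, 12.2, 11.1 and 11.3 CPM with HepG2 and 8.09, 8.54 and 8.88 CPM with Huh6. The 3 groups did not overlap. The rise with HepG2 was 0.80 ± 0.17 (adjusted p = 0.00122), and that with Huh6, 0.36 ± 0.17, did not pass (unadjusted p = 0.0458, adjusted p = 0.440). Their difference of 0.44 ± 0.17 missed the threshold (adjusted p = 0.0784), but passed with DESeq2 (adjusted p = 0.0479) and after subtraction of tumour reads (0.57, adjusted p = 0.0223).

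HepG2 cells themselves expressed CD22 at 3.03 ± 0.601 CPM, less than the macrophages, and subtraction left a rise of 0.95 (adjusted p = 0.000335). The call held whichever library was left out (adjusted p 0.0024 to 0.0096). iMDK pretreatment gave no call. CD22 levels were 10.9 and 10.1 CPM with HepG2 given 5 and 10 µM, and 7.94 and 8.41 CPM with Huh6.

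Of 7 markers of B lymphocytes 3 were tested in THP-1, and none, CD79A and PAX5 among them, was called with either line. After subtraction of tumour reads 1 of the 3 was called higher with HepG2 than alone (list median 0.37), and 1 higher with HepG2 than with Huh6. MS4A1 was at 0 in macrophages cultured alone and with HepG2, and the summed level was 15.4 to 19.8 CPM alone, 19.7 to 23.7 CPM with HepG2 and 16.2 to 20.2 CPM with Huh6. The summed level of markers of undifferentiated myeloid cells was also higher in the untreated co-cultures. The serine protease genes PRTN3 (1.96 ± 0.35), ELANE (1.41 ± 0.23) and AZU1 (1.31 ± 0.27) and the transcription factor MYB (1.17 ± 0.33) rose with HepG2, 4 of 5 tested. Over all genes 11.9% rose. Summed progenitor markers were 18.2 to 23.2 CPM alone, 50.4 to 68.4 CPM with HepG2 and 38.8 to 48.3 CPM with Huh6. They were 36.5 to 64.0 CPM with HepG2 given iMDK, with none of 5 called against untreated HepG2, and 22.5 to 40.4 CPM with Huh6 given iMDK. Their part in the Siglec changes was not tested.

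**Figure D2:**
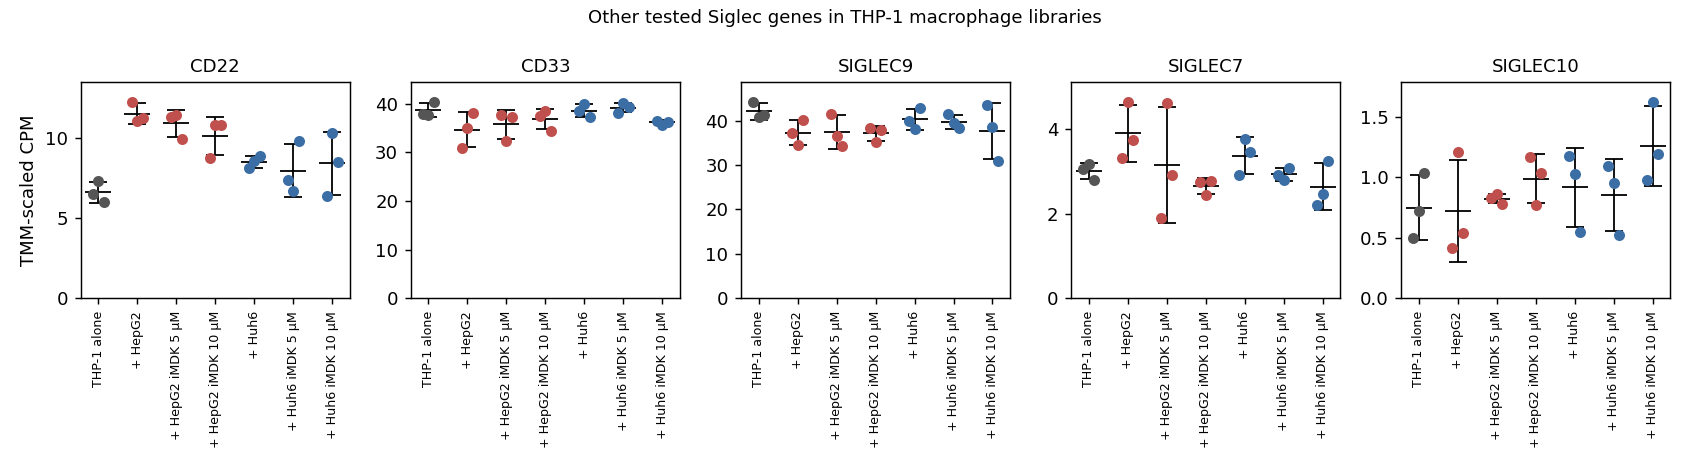
CD22, CD33, SIGLEC9, SIGLEC7 and SIGLEC10 in the 21 THP-1 libraries, as TMM-scaled CPM on linear axes that start at 0, with 1 point per library and bars for the mean ± SD (n = 3). CD22 is higher in all 3 libraries with HepG2 (11.1 to 12.2 CPM) than alone (6.01 to 7.30 CPM), and the CD33 and SIGLEC9 libraries all lie between 30.9 and 44.2 CPM.

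The ITIM-bearing members CD33, SIGLEC9, SIGLEC7 and SIGLEC10 gave no call in any of the 11 macrophage comparisons. CD33, a defining receptor of myeloid cells, lay between 30.9 and 40.4 CPM in every library, with means of 38.7 ± 1.46 CPM alone, 34.7 ± 3.62 with HepG2 and 38.6 ± 1.37 with Huh6. SIGLEC9, found on monocytes and neutrophils, had means of 42.0 ± 1.86, 37.3 ± 2.86 and 40.3 ± 2.41 CPM in the same groups. For CD33 the libraries with HepG2 overlapped those of macrophages cultured alone, and for SIGLEC9 they lay just below them, at 34.5 to 40.2 CPM against 40.7 to 44.2 CPM. The change with HepG2 was -0.16 for CD33 (95% interval -0.35 to 0.03) and -0.17 for SIGLEC9 (-0.40 to 0.05), and both were close to 0 after subtraction of tumour reads, at 0.02 and 0.0054. Over the 11 comparisons the lowest adjusted p was 0.214 for CD33 and 0.266 for SIGLEC9.

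SIGLEC7, an inhibitory receptor of natural killer cells and monocytes, ranged from 1.90 to 4.64 CPM. Its mean was 3.01 ± 0.194 CPM alone, 3.89 ± 0.676 with HepG2, 3.14 ± 1.37 with HepG2 given 5 µM iMDK and 2.65 ± 0.183 with 10 µM. All 3 libraries at 10 µM were below those with untreated HepG2, but the change of -0.55 ± 0.26 was not called (unadjusted p = 0.0451, adjusted p = 0.295). SIGLEC10, the receptor for CD24, had 7 to 25 counts per library, and its changes of -0.35 to 0.55 had no adjusted p under 0.645. At such counts a change of that size was not detectable.

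**Figure D3:**
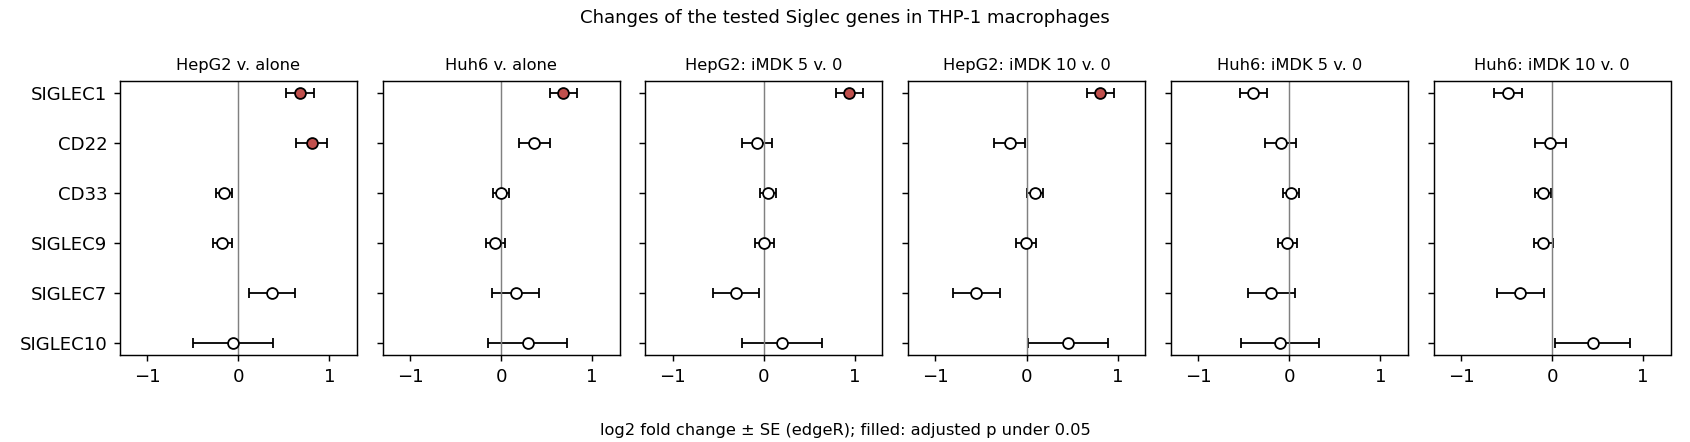
Log2 fold changes ± SE of the 6 tested members in 6 THP-1 comparisons, each against the group named in the panel title, with filled points for edgeR adjusted p under 0.05. SIGLEC1 is filled with both lines and after both iMDK doses in HepG2, CD22 only with HepG2, and the other 4 members in none.

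Among genes whose level in both vehicle-treated tumour lines was under 10% of that in macrophages alone, the pattern over the 21 libraries most like that of SIGLEC1 was that of LILRB2 (Pearson r = 0.886), an inhibitory receptor for MHC class I. Its means were 18.2 CPM alone, 27.4 with HepG2, 32.0 with either iMDK dose in HepG2, 23.3 with Huh6 and 22.3 and 19.9 after iMDK in Huh6. ATP6V1C2, a subunit of the vacuolar proton pump, and the interferon-induced IFI44 followed, with r of 0.843 and 0.842. HepG2 cells given 10 µM iMDK held IFI44 at 42.6 CPM, above the 7.66 CPM of the matching macrophages, and the part of tumour reads in its likeness to SIGLEC1 was not tested. For CD22 the nearest genes were SDS (r = 0.897), DAPL1 (0.884) and DPEP2 (0.859). The mean of DAPL1 was 33.9 CPM alone, 62.0 CPM with HepG2 and 46.0 CPM with Huh6. For the members that gave no call the nearest genes were less alike, with r of 0.738 for CD33 (RIPK3), 0.689 for SIGLEC9 (C16orf54), 0.612 for SIGLEC7 (S100A6) and 0.436 for SIGLEC10 (NCAM2). These r describe libraries that share groups and scaling, and the 3 nearest were picked from 784 or 785 genes.

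Because SIGLEC1 is an interferon-induced gene, the interferon-stimulated genes were read beside it. With HepG2, 2 of 20 tested rose, IFI6 (0.46) and ISG20 (3.57), with a median over the list of 0.02, where 11.9% of all genes rose. With Huh6 none did, at a median of 0.20. After iMDK in HepG2 the medians were 0.58 at 5 µM, with 0 of 20 called, and 0.66 at 10 µM, with OASL (2.32), IFI44 (1.04) and DDX60 (0.61) higher. HepG2 cells given iMDK held many reads of these genes. In the tumour line all 19 tested genes of the list rose with iMDK, with medians of 3.79 at 5 µM and 4.93 at 10 µM. Of all HepG2 genes 25.7% and 29.8% rose at these doses. IFI44 went from 0 to 42.6 CPM, OASL from 0.239 to 112 CPM and DDX60 from 0.274 to 133 CPM at 10 µM. Genes so low with vehicle may have passed the filter only through treated groups, so the count of 19 is not given as support. After subtraction of tumour reads the medians in macrophages fell to 0.18 and 0.22, with no gene called higher and 1 called lower among 18 tested at each dose. The subtracted profile came from HepG2 cells with 48 h of iMDK, and the co-cultured cells had 24 h before they met macrophages. Too many or too few reads of these genes may thus have been subtracted, which was not tested. For HepG2 against macrophages alone, subtraction gave 3 of 18 higher, at a median of 0.21. The part of interferon genes in the change of SIGLEC1 was not tested.

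Of the family outside the 9 members, SIGLEC16 and SIGLEC11 were lower with HepG2. SIGLEC16 fell by 1.69 on the log2 scale, from 5.85 to 1.80 CPM (adjusted p = 4.24e-05), and SIGLEC11 fell by 1.77, from 1.61 to 0.464 CPM (adjusted p = 0.0401), the only 2 of the 6 other Siglec genes that were tested. After subtraction of tumour reads SIGLEC16 was still called (-1.51, adjusted p = 0.000273) and SIGLEC11 was not (-1.60, adjusted p = 0.0748). These are near-identical paralogs whose reads may be split between them. Of the 10 genes of the signalling list PTPN6, the phosphatase SHP-1, fell by 0.34 with HepG2, from 532 to 421 CPM (adjusted p = 0.00188), and CBL fell by 0.45. After subtraction of tumour reads PTPN6 was no longer called (-0.16, adjusted p = 0.139). Over all genes 21.6% changed with HepG2 before subtraction. After subtraction the signalling list had 1 gene higher and 2 lower. None of the 3 tested ITAM adaptors was called before subtraction, and 1 was higher after it (list median 0.42).

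Other inhibitory receptors of myeloid cells were called in both directions. With HepG2, FCGR2B, the inhibitory Fc receptor, rose by 2.65 from 2.73 to 17.1 CPM, CD300A by 2.21 from 9.18 to 42.5 CPM, and LILRB2 by 0.59. LAIR1, a collagen receptor, fell by 0.80 from 465 to 268 CPM, and SIRPA, the receptor of CD47, fell by 0.41 from 1091 to 821 CPM. These 5 of 11 tested were called, at a list median of 0.29, where 21.6% of all genes were called. After subtraction 6 were higher and 1 lower, at a median of 0.47, and SIRPA was no longer called (-0.23, adjusted p = 0.174). The share of all genes called after subtraction is not given for this comparison, so list counts after subtraction have no such share beside them. With 10 µM iMDK in HepG2, FCGR2B and CD300A fell by 1.22 and 0.79 (adjusted p = 0.0298 and 0.0127) and SIRPA rose by 0.41 (adjusted p = 0.0483). After subtraction FCGR2B and CD300A were still called lower and SIRPA was not called (0.28, adjusted p = 0.193). SIGLEC1 was higher in both comparisons, which share the libraries with untreated HepG2.

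Sialic acid genes and ligands were also read in the macrophage libraries, where 21.6% of all genes changed with HepG2 and 1.8% with Huh6. With HepG2, 0 of 4 synthesis genes and 2 of 12 sialyltransferases (ST6GALNAC4 and ST8SIA5, both lower, by 0.41 and 0.65) were called, as were the sialidases NEU1 (0.40) and NEU4 (4.05). NEU4 was strongly expressed by HepG2 itself, and it was not higher after subtraction of tumour reads. CD52, a small glycoprotein reported as a SIGLEC10 ligand, rose by 0.85 from 318 to 572 CPM, and SELPLG rose by 0.40. LGALS3BP, reported to bind several Siglecs, rose from 34.2 to 97.1 CPM, but by 0.27 on the log2 scale after subtraction (adjusted p = 0.200). With Huh6 no gene of these lists was called.

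In the tumour cells CD22 was the member with the clearest response. HepG2 libraries held 49, 71 and 49 counts with vehicle, 137, 141 and 123 with 5 µM iMDK, 132, 154 and 156 with 10 µM iMDK and 259, 208 and 284 with 0.2 µM PKF118-310. No treated library overlapped the vehicle. The single library at 0.3 µM PKF118-310 held 163 counts (8.91 CPM), between the vehicle and the 0.2 µM libraries. The changes were 1.14 ± 0.16 and 1.27 ± 0.15 with iMDK (adjusted p = 1.33e-09 and 1.67e-11) and 2.03 ± 0.14 with PKF118-310 (adjusted p = 1.98e-22).

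SIGLEC9 appeared in HepG2 with PKF118-310. Vehicle libraries held 0, 1 and 0 counts, those with 5 µM iMDK 1, 1 and 2, those with 10 µM iMDK 1, 1 and 5, and those with 0.2 µM PKF118-310 31, 25 and 22. The library at 0.3 µM held 24, so all 4 libraries with PKF118-310 stood apart from the other HepG2 libraries. With 78 counts against 1, the ratio of summed counts was 76.4, with a counting interval of 13.3 to 3055. SIGLEC9 passed the filter on low counts in HepG2 only through the 0.2 µM group, so its test there is not given as support. Its level of 1.07 to 1.56 CPM remained far under the 42.0 CPM of macrophages. In Huh6 SIGLEC9 had 0 counts in all 18 libraries, which allows 3 counts, or at most 0.165 CPM, in each.

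These calls come from contrasts in which most genes moved. CD22 rose with PKF118-310, where 36.2% of genes rose and 72% changed, and with each iMDK dose, where 25.7% rose and 51.7% changed at 5 µM and 29.8% rose and 59% changed at 10 µM. CD79A, a signalling chain of the B cell receptor and the partner of CD22 in that cell type, went from 0.298 to 11.3 CPM with 0.2 µM PKF118-310 (adjusted p = 4.76e-27). MS4A1 and CD79B were at 0. CD79A was named after its values were seen.

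**Figure D4:**
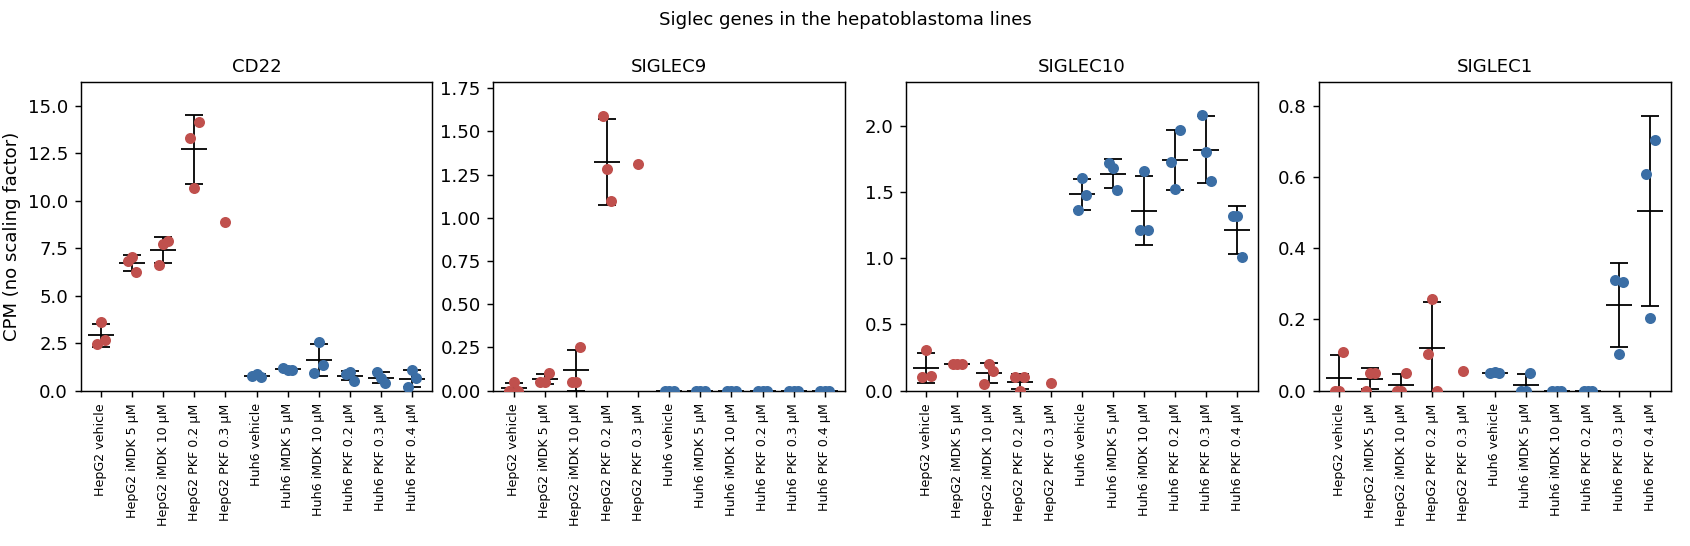
CD22, SIGLEC9, SIGLEC10 and SIGLEC1 in the HepG2 and Huh6 libraries, as CPM without a scaling factor, with 1 point per library and bars for the mean ± SD where a group has 3 libraries. CD22 and SIGLEC9 are highest in HepG2 with PKF118-310, SIGLEC9 is at 0 in every Huh6 library, and SIGLEC1 is highest in Huh6 with 0.4 µM PKF118-310.

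Huh6 cells held other members. CD22 was low, with 15, 17 and 14 counts with vehicle and 19, 51 and 25 with 10 µM iMDK. The change of 1.06 ± 0.36 (adjusted p = 0.00951) rested on replicate 2, and was 0.57 without it (adjusted p = 0.274). No change was called with 5 µM iMDK (0.51, adjusted p = 0.314) or with PKF118-310, where libraries held 4 to 21 counts. SIGLEC10 had 27, 31 and 29 counts with vehicle (1.46 ± 0.116 CPM) and 20 to 40 over all Huh6 libraries, against 0 to 6 in HepG2. Its changes lay between -0.21 and 0.33, with no adjusted p under 0.385. The second SIGLEC5 model held 3 to 19 counts in Huh6 and gave no call (lowest adjusted p = 0.208).

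Of the 3 members tested in Huh6, 1 rose with 10 µM iMDK, where 26.1% of genes rose and 52.4% changed. None was called with 5 µM iMDK, where 36% of genes changed, or with PKF118-310 at 0.2, 0.3 and 0.4 µM, where 2.81%, 29% and 56.8% changed. SIGLEC1 was below the filter in Huh6, but its counts were not even over the groups. They were 1, 1 and 1 with vehicle, 0 in every library with 0.2 µM PKF118-310, 6, 2 and 6 with 0.3 µM and 12, 4 and 14 with 0.4 µM. At 0.4 µM the ratio of summed counts to the vehicle was 9.90, with a counting interval of 3.08 to 50.7. This interval covers counting error only and not the spread between libraries. SIGLEC1 was singled out here after its counts were seen, and no test is given as support. CD33 had 0 to 7 counts, SIGLEC7 0 or 1 and SIGLEC14 0 to 2 in the libraries of both lines.

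Genes that build sialic acid linkages, the sugars bound by these receptors, were called in the tumour cells at shares close to those of all genes. In HepG2, 1 of 8 tested sialyltransferases rose and 3 fell at either iMDK dose (51.7% and 59% of all genes changed), and 2 rose and 4 fell with 0.2 µM PKF118-310 (72% of all genes), where ST6GAL1, which makes the alpha2,6 linkage preferred by CD22, fell by 1.61 from 473 to 155 CPM. ST3GAL1 fell by 0.94 with 10 µM iMDK in HepG2, from 119 to 61.7 CPM, and by 1.80 in Huh6, from 136 to 39.1 CPM, where 3 of 10 fell and 2 rose (52.4% of all genes changed). Of the reported ligands, CD24 fell by 0.51 in Huh6 with 10 µM iMDK, from 400 to 280 CPM, and LGALS3BP rose by 0.58 in HepG2, from 743 to 1112 CPM. All of these passed the threshold, and they were named after their values were seen.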

How the data were processed

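Raw counts per gene were deposited by the authors in 2 tables, 1 for THP-1 and 1 for the tumour lines. Per the submitters' processing notes, the tools were STAR 2.7.3a, SAMtools 1.16.1, featureCounts and edgeR 3.36, with the build GRCh38. Per the labels' protocols, libraries were stranded poly(A) libraries. The annotation and the strand option of the counting were not given in the sources used here.

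Each cell line was fitted on its own with edgeR 4.0.16 (limma 3.58.1, R 4.3.3) on the deposited counts, with filterByExpr by group, TMM scaling and edgeR's robust two-sided quasi-likelihood test of contrasts between group means. This tested 15500 genes in THP-1, 14111 in HepG2 and 15029 in Huh6. P-values were adjusted by Benjamini-Hochberg over all genes tested, with a threshold of 0.05, and tests of a difference between co-cultures used the contrast of 4 groups. The SE is the fold change divided by the square root of F. CPM are TMM-scaled unless stated, and count intervals are exact and cover counting error only (reads counted without molecular identifiers can be copies of one molecule). The share of tumour reads was taken from hepatoblastoma markers that reached 100 CPM in the matching tumour group, as the median of their excess over macrophages alone divided by the tumour CPM. Groups match by line and dose only, and tumour line groups had 48 h of treatment. The tests were checked on simulated counts.

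Alternatives were DESeq2 1.42.0, its size factors within edgeR, no filter, only the groups compared, a replicate block, subtraction of tumour reads and omission of each library. Replicate numbers paired the samples, by correlations over 0.1 in every pair, only for HepG2 with 5 µM iMDK against untreated HepG2 (0.386, 0.143 and 0.381) and against 10 µM (0.248, 0.233 and 0.245). Named genes are all 9 members, up to 4 passing genes per list and macrophage comparison with the largest change, and the 3 genes most like each member, with exceptions stated. The members and lists were chosen with earlier results of these data known.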

Additional observations from a re-analysis of the deposited data

Results flagged for a closer look

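The change of SIGLEC1 in macrophages after iMDK pretreatment of the tumour cells differed between HepG2 and Huh6 co-cultures in the test of the difference itself, by 1.33 on the log2 scale at 5 µM and by 1.29 at 10 µM (edgeR adjusted p = 0.0231 and 0.0235). All 6 libraries with pretreated HepG2 were above those with untreated HepG2, and all 6 with pretreated Huh6 were below those with untreated Huh6. The estimated share of tumour reads differed between these groups, with medians of 8.55%, 4.83% and 2.89% for HepG2 given no iMDK, 5 µM and 10 µM and 0.726%, 0.287% and 0.168% for Huh6. After subtraction of these reads the differences were 1.28 and 1.18 (adjusted p = 0.00366 and 0.00507). The call was lost in 8 of 12 omissions of a library at 5 µM and 6 of 12 at 10 µM, and at 5 µM with a replicate block (adjusted p = 0.0501).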

How the results depend on the processing

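Over the member log2 fold changes, the settings other than omissions kept direction and call in 465 cases, reversed 25, made 4 pass and 1 fail. Omission of single libraries kept 505, reversed 67, made 1 pass and 21 fail. Subtraction of tumour reads lowers the totals of co-culture libraries, but the causes of these reversals and lost or gained calls were not tested. No reversal concerned a called change. Depth limits SIGLEC10, SIGLEC5 and SIGLEC14, whose counts lie near the 3-count limit or under 30 in macrophages.

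Subtraction of tumour reads turned the change with HepG2 to 0.022 for CD33, 0.0054 for SIGLEC9 and 0.12 for SIGLEC10, that with Huh6 to 0.018 for CD33, and HepG2 against Huh6 to 0.15 for SIGLEC1, 0.0040 for CD33 and 0.046 for SIGLEC9. It gave -0.026 (CD33) and -0.065 (SIGLEC9) at 5 µM iMDK in HepG2, -0.037 (CD33) at 10 µM and -0.011 (CD33) for 10 against 5 µM. The difference between co-cultures became -0.053 (CD22), -0.029 (CD33) and -0.024 (SIGLEC9) at 5 µM and -0.014 (SIGLEC9) and -0.10 (SIGLEC10) at 10 µM. SIGLEC1 in HepG2 against Huh6 was 0.011 with DESeq2, 0.0041 with no filter, 0.014 with only the groups compared and 0.011 with DESeq2's size factors. SIGLEC10 in the 10 µM difference was -0.015, -0.030 and -0.016 with DESeq2, no filter and these size factors, and SIGLEC9 at 5 µM in HepG2 was -0.00055 with the size factors.

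The replicate block called 5113 genes for HepG2 against macrophages alone (3343 in the main model), 936 for Huh6 (279) and 4496 for HepG2 against Huh6 (2584). For 5 and 10 µM iMDK it called 582 and 1835 in HepG2 (15 and 522), 14 and 49 in Huh6, and 23 and 202 for the differences. Same-numbered macrophage samples correlated positively in every pair, from 0.010 (HepG2 against macrophages alone) to 0.386 (5 µM iMDK against untreated HepG2). The main model did not use this pairing. With the block CD22 passed in HepG2 against Huh6 (1 member called higher, also with DESeq2 and after subtraction), SIGLEC1 missed the threshold in the 5 µM difference (0 members called, adjusted p = 0.0501), and CD22 was -0.0032 in Huh6 with 0.2 µM PKF118-310. It changed no other member's call.

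DESeq2, no filter and subtraction called 447, 689 and 63 genes for Huh6 against macrophages alone. For 5 µM iMDK in HepG2, DESeq2, no filter, only the groups compared, DESeq2's size factors and subtraction called 162, 320, 67, 23 and 309, and for 10 µM no filter and only the groups compared called 854 and 295. For 10 against 5 µM in HepG2, DESeq2, no filter and subtraction called 9, 79 and 7, and in Huh6 no filter called 1. For 5 µM iMDK in Huh6, DESeq2, no filter and only the groups compared called 19, 111 and 0. For 10 µM in Huh6, DESeq2, no filter, only the groups compared and subtraction called 54, 167, 0 and 1, with 1 member, SIGLEC1, lower without the filter. For the difference at 5 µM DESeq2, no filter, only the groups compared and subtraction called 6, 55, 1 and 68, and at 10 µM 29, 121, 1 and 174. Without the filter 1 member, SIGLEC1, was called higher in Huh6 cells with 0.4 µM PKF118-310, where it did not pass the filter of the main fit.

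With single libraries left out, genes called were 86 to 240 for Huh6 against macrophages alone, 1566 to 2848 for HepG2 against Huh6, 0 to 50 and 204 to 637 for 5 and 10 µM iMDK in HepG2, 0 to 2 for 10 against 5 µM, 0 to 18 and 0 to 57 for 5 and 10 µM in Huh6, 0 to 2 and 0 to 8 for the differences, and 273 to 315 for Huh6 cells with 0.2 µM PKF118-310. Members called higher were 0 to 1 for Huh6 against macrophages alone, 5 µM iMDK in HepG2 co-cultures, both differences, and Huh6 cells with 10 µM iMDK or 0.3 or 0.4 µM PKF118-310, and 1 to 2 for HepG2 cells with 10 µM iMDK.

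The ranges of changes that reversed in such omissions, none of them called, were -0.64 to 0.24 for SIGLEC10 with HepG2, -0.031 to 0.027 for CD33 with Huh6 and -0.078 to 0.089 for SIGLEC1 in HepG2 against Huh6. At 5 µM iMDK in HepG2 they were -0.024 to 0.11 (CD33), -0.069 to 0.055 (SIGLEC9) and -0.086 to 0.79 (SIGLEC10), at 10 µM -0.061 to 0.034 (SIGLEC9), and for 10 against 5 µM -0.034 to 0.077 (CD33), -0.52 to 0.14 (SIGLEC7) and -0.077 to 0.059 (SIGLEC9). At 5 µM in Huh6 they were -0.28 to 0.011 (CD22), -0.0018 to 0.047 (CD33), -0.36 to 0.16 (SIGLEC10) and -0.060 to 0.026 (SIGLEC9), at 10 µM -0.18 to 0.14 (CD22) and -0.22 to 0.025 (SIGLEC9), and for 10 against 5 µM -0.089 to 0.26 (CD22), -0.22 to 0.068 (SIGLEC1) and -0.20 to 0.050 (SIGLEC9). The difference at 5 µM gave -0.083 to 0.19 (CD22), -0.044 to 0.087 (CD33), -0.51 to 0.16 (SIGLEC7) and -0.045 to 0.076 (SIGLEC9), and at 10 µM -0.28 to 0.59 (SIGLEC10) and -0.035 to 0.21 (SIGLEC9). In Huh6 cells CD22 gave -0.17 to 0.24, -0.50 to 0.11 and -0.78 to 0.22 at 0.2, 0.3 and 0.4 µM PKF118-310, and the second SIGLEC5 model -0.39 to 0.50 and -0.95 to 0.14 at 5 and 10 µM iMDK and -0.011 to 1.03 at 0.4 µM PKF118-310.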
